A study of Arabidopsis thaliana with 9 samples.

Results

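Jasmonates are lipid hormones made from alpha-linolenic acid released from plastid membranes. In the plastid, a 13-lipoxygenase adds oxygen to the fatty acid, allene oxide synthase (AOS) turns the hydroperoxide into an unstable epoxide, and allene oxide cyclase (AOC) closes the ring to give OPDA. In the peroxisome, OPDA reductase 3 (OPR3) reduces OPDA, and beta-oxidation then shortens its side chain to jasmonic acid. The 10 genes described here encode these steps: the 13-lipoxygenases LOX2, LOX3, LOX4 and LOX6, AOS, the 4 cyclases AOC1 to AOC4, and OPR3. The choice followed their place in the pathway but was made with earlier results of these data known. Counts of calls among these genes are therefore no independent evidence. The genes are 10 of the 27814 rows of the deposited count table. All 10 locus IDs carried the listed symbol in the annotation, and all 10 passed the filter on low counts.

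The counts come from polyadenylated RNA of whole, untreated Arabidopsis thaliana seedlings in 3 groups of 3 libraries. Col-0 is the wild type. AtCXE15-OE is a transgenic line overexpressing CXE15, a carboxylesterase of strigolactone breakdown, and atd14-1 is a mutant of D14, the strigolactone receptor. Which promoter drives the transgene, and how many independent lines were used, is not stated in the labels. All groups were grown at 22 °C with 16 h of light and 8 h of dark, and their age is given as 8 days in one label and 10 days in another. The series was designed to profile responses that depend on strigolactones.

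Library totals ranged from 37724263 to 54421069 counts. Levels are CPM, the count scaled by library total and TMM composition factor, and the floor of 3 counts corresponds to at most 0.0795 CPM, which covers counting error only. CXE15 was at 739 to 964 CPM in AtCXE15-OE and at 2.94 to 4.12 CPM in the other 6 libraries, and D14 was at 6.48 to 6.92 CPM in atd14-1 and at 43.4 to 45.3 CPM elsewhere. The labels state neither separate cultures for the replicates nor a harvest hour or batch. The p-values therefore measure the spread between these libraries, and differences in growth or harvest cannot be told apart from genotype. Markers of green tissue and of root were both present, with none of the 8 and none of the 9 at 0 in any library. In these bulk samples, fewer cells of a type and less RNA per cell cannot be told apart.

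The 4 cyclase genes are shown first because they are alike, and the results below differ between them. AOC1, AOC2 and AOC3 lie next to each other on chromosome 3 (9403779 to 9405338, 9406669 to 9408071 and 9409160 to 9411090, plus strand, TAIR10.1), and AOC4 lies on chromosome 1 (4547388 to 4548894, plus strand). Coding sequences of AOC1 and AOC2 were 90.3% identical, the highest of the 6 cyclase pairs, and the others ranged from 71.1% to 81.9%. The same 60 coding bases of each gene are printed below from RefSeq TAIR10.1, with the 8 columns that differ among the 4 genes in capitals. This window was picked as the stretch without gaps that has the most columns shared by all 4 genes. It therefore shows the genes as more alike than their whole coding sequences are. They lie at chr3:9404668-9404727 in AOC1, chr3:9407402-9407461 in AOC2, chr3:9409972-9410031 in AOC3 and chr1:4548115-4548174 in AOC4, all on the plus strand.
AOC1: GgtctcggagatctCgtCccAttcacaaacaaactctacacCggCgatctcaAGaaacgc
AOC2: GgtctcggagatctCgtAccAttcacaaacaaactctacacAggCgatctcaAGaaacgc
AOC3: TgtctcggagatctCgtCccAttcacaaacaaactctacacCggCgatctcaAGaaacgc
AOC4: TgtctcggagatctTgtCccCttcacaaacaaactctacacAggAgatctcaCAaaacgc
In this stretch AOC1 and AOC3 differ by 1 base, AOC1 and AOC2 by 2, and AOC4 differs from the others by 6 or 7. Over all exons, 2.2% of the 50-base windows of AOC1 also occur elsewhere in the genome, as do 0.0832% of those of AOC2, 1.6% of those of AOC3 and none of those of AOC4. The shared windows of AOC1 lie in AOC3, and none of the 10 genes shares a 100-base exon window. The labels do not tell how reads fitting several places were counted, and a small share of the AOC1 and AOC3 counts may have been assigned to either gene.

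LOX2 and AOC2 rose in both lines, by more in atd14-1 than in AtCXE15-OE, and AOC4 rose in atd14-1. LOX3, LOX4, LOX6, AOS, AOC1, AOC3 and OPR3 did not pass the test in any comparison. LOX2 was 1.93-fold higher in atd14-1 than in Col-0, AOC2 1.48-fold and AOC4 1.21-fold. In AtCXE15-OE, LOX2 was 1.25-fold and AOC2 1.26-fold higher than in Col-0. Each comparison is a contrast of 1 edgeR quasi-likelihood fit over all 9 libraries, with p-values adjusted over 21425 genes and a threshold of 0.05. Both lines are set against the same Col-0 libraries, so the 2 comparisons are not independent.

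Against Col-0, 2 of the 10 genes were called higher in AtCXE15-OE and 0 lower, where 2.27% of all tested genes were called (0.761% higher, 1.51% lower). In atd14-1, 3 of 10 were called higher and 0 lower, where 11.9% of all tested genes were called (5.06% higher, 6.87% lower). Directly between the lines, 3 of 10 were higher in atd14-1 and 0 lower, where 6.94% of all tested genes were called (2.82% higher, 4.12% lower). At an unadjusted p under 0.05, edgeR had 1 gene lower in each line, LOX4, and 0 lower between the lines. DESeq2 and limma-voom also called 0 of the 10 lower in all 3 comparisons. The median log2 fold change of the 10 genes was 0.00 in AtCXE15-OE, 0.10 in atd14-1 and 0.13 between the lines, against 0.00, 0.01 and 0.00 for all tested genes. Scaled by library size alone, the calls over all genes split differently: 220 higher and 274 lower in AtCXE15-OE against 163 and 324, 2241 and 968 in atd14-1 against 1084 and 1472, and 1060 and 551 between the lines against 604 and 882.

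**Figure D1:**
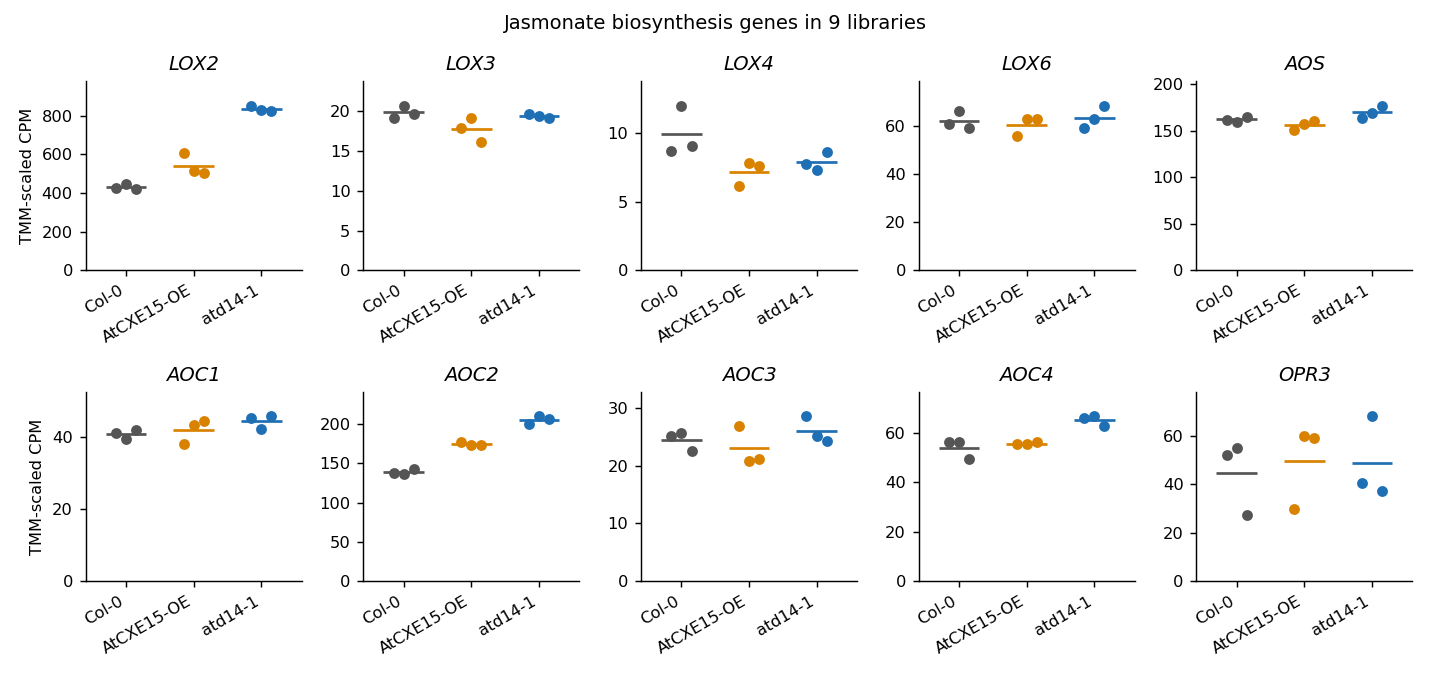
TMM-scaled CPM of each of the 10 genes in each library (points) with the mean of each group (line), in a panel per gene with its own axis. The 3 groups of LOX2 and of AOC2 do not overlap and rise from Col-0 over AtCXE15-OE to atd14-1, while OPR3 has high and low libraries in every group.

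LOX2 (AT3G45140, chromosome 3, 16525245 to 16529352, plus strand) encodes the plastid lipoxygenase that supplies much of the jasmonate of wounded leaves. Its level was 428, 446 and 423 CPM in the Col-0 libraries, 610, 513 and 502 in those of AtCXE15-OE, and 852, 828 and 827 in those of atd14-1. The groups did not overlap, and AtCXE15-OE replicate 1 stood above the other libraries of its line. Group means were 432 ± 12.2, 542 ± 59.6 and 836 ± 14.1 CPM (SD, n = 3). The log2 fold change was 0.95 ± 0.07 (SE) in atd14-1 (edgeR adjusted p = 1.06e-06) and 0.33 ± 0.07 in AtCXE15-OE (edgeR adjusted p = 0.0208). Between the lines it was 0.63 ± 0.07 (edgeR adjusted p = 0.000121). The AtCXE15-OE call was lost without Col-0 replicate 1, 2 or 3 (edgeR adjusted p = 0.0918, 0.0591 and 0.0804) and with only the 6 libraries compared (0.0733). In these settings the log2 fold change stayed between 0.31 and 0.35. With 1 library of any group left out at a time, the log2 fold change in AtCXE15-OE ranged more widely, from 0.23 to 0.38.

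The other 13-lipoxygenases are known from wound and stress responses, and LOX3 and LOX4 also from male fertility. LOX3 and LOX4 share 80.1% of their coding bases, while LOX2 shares 52.4% to 54.2% with the others. LOX3 (AT1G17420) was at 19.2, 20.7 and 19.7 CPM in the Col-0 libraries, 17.9, 19.2 and 16.2 in those of AtCXE15-OE, and 19.6, 19.4 and 19.2 in those of atd14-1, with overlapping groups. LOX6 (AT1G67560) ranged from 55.8 to 68.6 CPM over all 9 libraries, also with overlapping groups. LOX4 (AT1G72520) was at 8.69, 12 and 9.09 CPM in the Col-0 libraries, 6.18, 7.80 and 7.59 in those of AtCXE15-OE, and 7.78, 7.31 and 8.63 in those of atd14-1. All 6 libraries of the lines lay below the Col-0 libraries, but the gene did not pass the test. Its log2 fold change was -0.46 ± 0.14 in AtCXE15-OE (edgeR adjusted p = 0.14) and -0.33 ± 0.14 in atd14-1 (edgeR adjusted p = 0.178). Without Col-0 replicate 2, its highest library, these were -0.30 and -0.17 (edgeR adjusted p = 0.452 and 0.545). For LOX3 and LOX6 the 95% intervals of the log2 fold change ran from -0.34 to 0.02 and from -0.19 to 0.11 in AtCXE15-OE, and from -0.22 to 0.14 and from -0.12 to 0.18 in atd14-1, so that rises as large as that of LOX2 in atd14-1 lie outside them.

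AOS (AT5G42650, chromosome 5) is the single-copy cytochrome P450 through which the whole pathway runs. It was at 162, 160 and 165 CPM in the Col-0 libraries, 151, 157 and 161 in those of AtCXE15-OE, and 164, 169 and 177 in those of atd14-1. The atd14-1 libraries were all above the AtCXE15-OE libraries, and both lines overlapped with Col-0. The log2 fold change was -0.05 ± 0.05 in AtCXE15-OE (edgeR adjusted p = 0.741), 0.07 ± 0.05 in atd14-1 (0.461) and 0.12 ± 0.05 between the lines (0.184). The upper end of its 95% interval in atd14-1 was 0.17, below the whole interval of LOX2 there (0.80 to 1.10).

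Of the cyclases, AOC2 (AT3G25770) was at 138, 136 and 143 CPM in the Col-0 libraries, 177, 174 and 173 in those of AtCXE15-OE, and 200, 210 and 207 in those of atd14-1. As for LOX2, the groups did not overlap, and the libraries of each lay close together. The log2 fold change was 0.33 ± 0.05 in AtCXE15-OE (edgeR adjusted p = 0.00127), 0.57 ± 0.05 in atd14-1 (2.99e-06) and 0.23 ± 0.05 between the lines (0.00731). AOC2 was called under all 16 alternative settings in each of the 3 comparisons.

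AOC1 (AT3G25760), the neighbour of AOC2 with the most similar coding sequence, was at 41.0, 39.4 and 42.0 CPM in the Col-0 libraries, 38, 43.4 and 44.3 in those of AtCXE15-OE, and 45.2, 42.2 and 45.7 in those of atd14-1. The atd14-1 libraries were all above Col-0, by little, and the gene did not pass the test (log2 fold change 0.12 ± 0.07, edgeR adjusted p = 0.311). AOC3 (AT3G25780) ranged from 20.8 to 28.5 CPM with overlapping groups. Its log2 fold change was -0.09 ± 0.10 in AtCXE15-OE (edgeR adjusted p = 0.801) and 0.09 ± 0.10 in atd14-1 (0.673). The 95% intervals in atd14-1 ended at 0.27 for AOC1 and 0.31 for AOC3, below the interval of AOC2 (0.47 to 0.66).

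AOC4 (AT1G13280) was at 56.2, 56.4 and 49.5 CPM in the Col-0 libraries, 55.3, 55.5 and 56.1 in those of AtCXE15-OE, and 66.1, 66.6 and 62.7 in those of atd14-1. The atd14-1 libraries were above all others, and the other 2 groups overlapped. The log2 fold change was 0.27 ± 0.06 in atd14-1 (edgeR adjusted p = 0.00896), 0.04 ± 0.06 in AtCXE15-OE (0.857) and 0.23 ± 0.06 between the lines (0.0362). In the table the row of AOC4 lies within that of the neighbouring gene AT1G13270 (chromosome 1, 4544953 to 4548875). Before scaling, that row held 1497, 1462 and 1774 counts in the Col-0 libraries and 2240, 2482 and 2424 in those of AtCXE15-OE. In the atd14-1 libraries it held 2051, 2525 and 2044. A sum of both rows mixes both genes and does not give the part of AOC4. An alternative chosen after seeing the data summed such overlapping rows and left out rows over 100 kb. With it, the log2 fold change was 0.29 against Col-0 (edgeR adjusted p = 0.00104) and 0.11 between the lines (0.241). The call between the lines was also lost without AtCXE15-OE replicate 2 or 3 (edgeR adjusted p = 0.106 and 0.0982) or atd14-1 replicate 1, 2 or 3 (0.111, 0.138 and 0.0582), where the log2 fold change stayed between 0.21 and 0.25. LOX2 and AOC1 to AOC3 overlap no other row. LOX3, LOX4, LOX6, AOS, AOC4 and OPR3 overlap rows that span over 100 kb.

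OPR3 (AT2G06050, chromosome 2), the peroxisomal reductase needed for fertile pollen, was at 52.2, 55.0 and 27.2 CPM in the Col-0 libraries, 29.8, 59.9 and 59.0 in those of AtCXE15-OE, and 40.4, 68.0 and 37.4 in those of atd14-1. High and low libraries occurred in every group. The highest library was 2.02, 2.01 and 1.82 times the lowest within Col-0, AtCXE15-OE and atd14-1. Of 13483 tested genes with a mean of 10 CPM or more, 0.541% had a ratio of at least 1.82, the smallest of OPR3, in all 3 groups. Its 95% interval of the log2 fold change was wide, from -0.88 to 1.17 in AtCXE15-OE, and the SE was 0.42 in both lines, so that a difference the size of that of LOX2 was not detectable for OPR3.

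**Figure D2:**
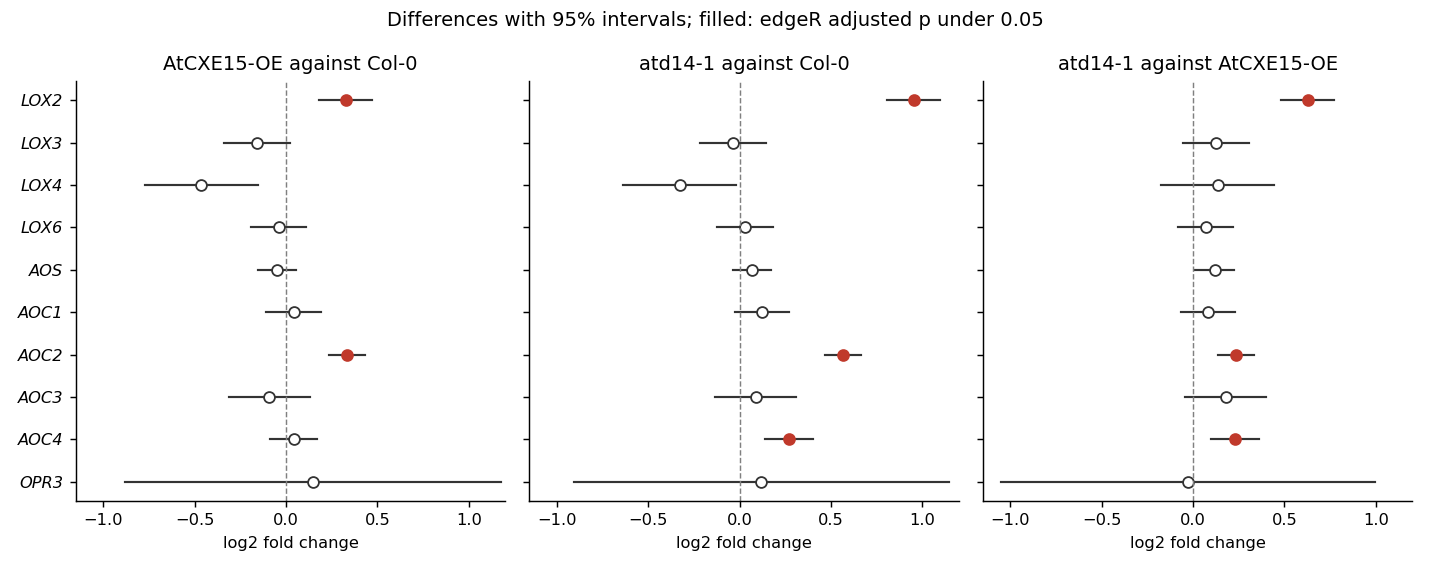
Log2 fold changes of the 10 genes in the 3 comparisons (points) with 95% intervals (bars), with filled points where the edgeR adjusted p was under 0.05. LOX2 and AOC2 lie above 0 in all 3 comparisons, and the interval of OPR3 is the widest.

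Groups without overlap were counted beside these calls. In AtCXE15-OE 2 of the 10 genes lay wholly above Col-0 and 1 wholly below, where 17.9% of all tested genes were apart from Col-0 (8.93% in each direction). In atd14-1 4 lay wholly above and 1 below, where 31.5% of all tested genes were apart (15.7% above, 15.8% below). Between the lines 4 lay wholly above and 0 below, where 26.0% of all tested genes were apart (12.3% above, 13.7% below).

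Levels of different genes were compared per kilobase of the gene length in the table. In Col-0, LOX2 was highest at 152 ± 4.30 CPM per kb, followed by AOC2 at 142 ± 3.71 and AOS at 90.2 ± 1.57 (SD, n = 3). AOC4 (43.0 ± 3.12) and AOC1 (40.8 ± 1.30) did not differ beyond their spread. OPR3 (27.4 ± 9.36) did not differ beyond its spread from AOC3 (24.3 ± 1.58) or LOX6 (21.3 ± 1.25), while AOC3 was above LOX6 in each of the 3 libraries. LOX3 (5.95 ± 0.24) and LOX4 (3.26 ± 0.59) were lowest. The most abundant lipoxygenase and the most abundant cyclase were thus the genes that were higher in both lines. LOX2 made up 83.3% ± 0.551 of the per-kb level of the 4 lipoxygenases in Col-0, 86.9% ± 1.79 in AtCXE15-OE and 90.7% ± 0.603 in atd14-1. AOC2 made up 56.7% ± 1.45, 62.1% ± 0.351 and 63.2% ± 1.25 of the 4 cyclases. The summed level of the cyclases was 258 ± 1.85, 295 ± 2.01 and 341 ± 2.49 CPM in Col-0, AtCXE15-OE and atd14-1, while AOS, the enzyme before them, kept overlapping ranges between each line and Col-0.

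**Figure D3:**
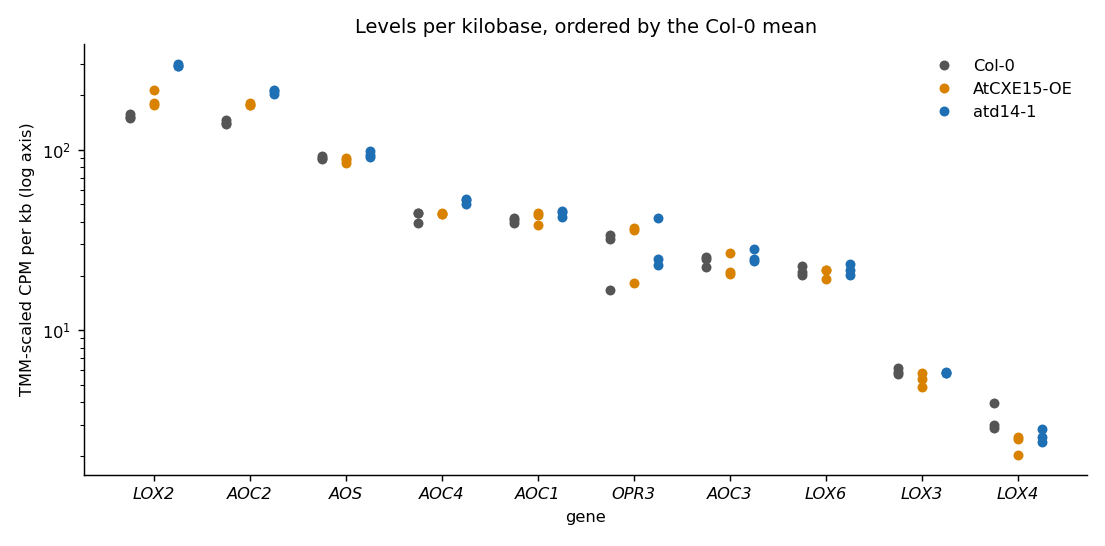
CPM per kb of each gene (log axis) in each library of Col-0, AtCXE15-OE and atd14-1 (1 point a library), with the genes ordered by their Col-0 mean. LOX2 and AOC2 stand highest in all 3 groups, and LOX3 and LOX4 lowest.

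The sequence upstream of LOX2 is printed because this gene had the largest difference, and because CIN-type TCP factors such as TCP4 are known to act on its promoter. These are the 250 bases before the annotated start (chr3:16524995-16525244, plus strand, TAIR10.1), with the match to the class II TCP motif GTGGNCC in capitals.
LOX2 upstream: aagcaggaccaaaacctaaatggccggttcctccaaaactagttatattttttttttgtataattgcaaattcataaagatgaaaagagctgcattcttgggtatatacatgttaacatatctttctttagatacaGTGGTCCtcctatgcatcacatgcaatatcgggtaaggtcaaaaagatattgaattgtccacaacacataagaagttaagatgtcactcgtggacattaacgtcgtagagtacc
The match starts 114 bases before the annotated start. Among the 10 genes, LOX2 was the 1 with a match to GTGGNCC on either strand, and AOS the 1 with a match to the G-box CACGTG, which MYC factors bind, 6 bases before its start. Over 27443 promoters of the same length, 4.61% held GTGGNCC and 6.49% held CACGTG. AOC2, which was also higher in both lines, held neither in this window. A match describes letters and not binding.

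The upstream sequences of AOC1 and AOC2 are set side by side because AOC2 was called in both lines and its near copy AOC1 in neither. They lie at chr3:9403529-9403778 and chr3:9406419-9406668 on the plus strand, and capitals mark the longest run of letters they share within these windows.
AOC1 upstream: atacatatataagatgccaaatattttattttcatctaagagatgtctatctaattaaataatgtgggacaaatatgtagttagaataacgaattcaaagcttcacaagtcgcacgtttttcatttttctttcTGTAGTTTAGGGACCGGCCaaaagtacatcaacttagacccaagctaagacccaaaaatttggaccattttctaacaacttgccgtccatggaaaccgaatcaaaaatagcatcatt
AOC2 upstream: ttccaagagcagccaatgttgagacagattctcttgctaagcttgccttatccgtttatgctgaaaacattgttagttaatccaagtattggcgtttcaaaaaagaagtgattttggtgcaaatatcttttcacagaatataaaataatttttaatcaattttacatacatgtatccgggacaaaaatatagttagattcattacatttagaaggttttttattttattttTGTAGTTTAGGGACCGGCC
The shared run is at least 19 bases long, since it ends at the edge of the AOC2 window. Within the windows it lies 117 to 99 bases before the annotated start of AOC1 and 19 to 1 bases before that of AOC2.

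Lists of genes around the pathway were described in the same fits. All were chosen with earlier results of these data known, so counts of calls in them are no independent evidence. Of the genes that supply and export the fatty acid, 4 of 6 were tested and 0 were called against Col-0 in either line by edgeR. The lipases DAD1 and DGL were not tested and had at most 0.121 CPM in any library. At an unadjusted p under 0.05, edgeR had 0 of the 4 genes in AtCXE15-OE and 1 lower in atd14-1, which DESeq2 called and limma-voom did not. Among 7 genes of peroxisomal import and beta-oxidation, the acyl-CoA oxidase gene ACX1 fell in atd14-1 (157.8 ± 2.05 CPM in the wild type and 137 ± 3.60 CPM in the mutant, with a log2 fold change of -0.20 ± 0.05 and an edgeR adjusted p of 0.0219). In AtCXE15-OE 0 of these 7 were called by edgeR, DESeq2 or limma-voom, with 1 lower at an unadjusted edgeR p under 0.05.

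HPL1 encodes hydroperoxide lyase, which competes with AOS for the product of 13-lipoxygenase, and the annotation notes that its protein is not functional in the Columbia accession. It was at 11.6, 9.14 and 11.8 CPM in the Col-0 libraries, 13.3, 16.5 and 14.1 in those of AtCXE15-OE, and 20.7, 22.9 and 21.0 in those of atd14-1, with no overlap between groups. Its log2 fold change was 0.99 ± 0.12 in atd14-1 (edgeR adjusted p = 7.21e-05), 0.43 ± 0.12 in AtCXE15-OE (0.0782) and 0.56 ± 0.11 between the lines (0.0101). In AtCXE15-OE DESeq2 called HPL1 higher (adjusted p = 0.0214), while edgeR and limma-voom (adjusted p = 0.0877) did not. Of the other 4 genes in its list (LOX1, LOX5, OPR1 and OPR2), 0 were called by edgeR, DESeq2 or limma-voom in atd14-1, where 1 was lower at an unadjusted edgeR p under 0.05. OPR1 and OPR2 overlap in the table, so their counts may have been assigned to either gene.

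Genes of jasmonate conjugation and turnover, such as JAR1, which joins jasmonic acid to isoleucine to give the active hormone, held 0 of 12 called in either line by edgeR, DESeq2 or limma-voom. At an unadjusted edgeR p under 0.05, 1 was higher in AtCXE15-OE, and 1 was higher and 1 lower in atd14-1. Their median log2 fold change was -0.10 in AtCXE15-OE and 0.04 in atd14-1.

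Of 7 genes that jasmonate is known to induce, 6 were tested. In atd14-1, 4 of the 6 rose, 0 fell and 2 were not called, where 5.06% of all tested genes were called higher. In AtCXE15-OE 1 of the 6 rose and 0 fell, where 0.761% of all tested genes were called higher. The median log2 fold change of the 6 was 0.60 in atd14-1 and 0.10 in AtCXE15-OE. VSP2, a vegetative storage protein gene and common jasmonate marker, was at 119, 117 and 104 CPM in the Col-0 libraries, 130, 159 and 152 in those of AtCXE15-OE, and 202, 185 and 186 in those of atd14-1, so that the 3 groups did not overlap. Its log2 fold change was 0.37 ± 0.08 in AtCXE15-OE (edgeR adjusted p = 0.0232) and 0.75 ± 0.08 in atd14-1 (edgeR adjusted p = 3.87e-05). VSP1, its close relative, was at 78.1, 82.8 and 74.3 CPM in the Col-0 libraries, 53.2, 66.0 and 65.8 in those of AtCXE15-OE, and 101, 94.6 and 110 in those of atd14-1. VSP1 rose in atd14-1 (0.38 ± 0.09, edgeR adjusted p = 0.0125), while all AtCXE15-OE libraries lay below Col-0 (-0.35 ± 0.09, edgeR adjusted p = 0.066). DESeq2 called this fall (adjusted p = 0.00514), and limma-voom did not (0.0644). The cystine lyase gene CORI3 rose in atd14-1 by 0.66 ± 0.08 and the jacalin-related lectin gene JAL23 by 1.09 ± 0.13 on the log2 scale (edgeR adjusted p = 0.000155 and 6.22e-05). In AtCXE15-OE CORI3 and JAL23 were at 0.18 and 0.26 (0.377 and 0.412).

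Of all tested genes, 1.51% were called lower in AtCXE15-OE and 6.87% in atd14-1. Of 6 genes of jasmonate perception and core regulation, 2 fell in each line and 0 rose. MYC2, the main transcription factor of that response, was at 147, 142 and 145 CPM in the Col-0 libraries, 101, 101 and 108 in those of AtCXE15-OE, and 111, 114 and 115 in those of atd14-1. ORA47, a factor that activates biosynthesis genes after wounding, was at 15.7, 14.1 and 13.3 CPM in the Col-0 libraries, 7.32, 7.84 and 7.10 in those of AtCXE15-OE, and 8.78, 8.79 and 9.13 in those of atd14-1. Both lines lay below Col-0 in every library. The log2 fold changes of MYC2 were -0.48 ± 0.05 and -0.35 ± 0.05 (edgeR adjusted p = 6.57e-05 and 0.000196), and those of ORA47 were -0.95 ± 0.10 and -0.69 ± 0.10 (0.000183 and 0.00045). At an unadjusted edgeR p under 0.05, and by DESeq2 or limma-voom, 0 of the 6 rose as well. A further gene, MYC4, which encodes a relative of MYC2, had a log2 fold change of -0.21 ± 0.05 in AtCXE15-OE (edgeR adjusted p = 0.0714), a fall that DESeq2 called (adjusted p = 0.0163) and limma-voom did not (0.0705).

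Among 12 JAZ genes, whose proteins repress MYC factors and whose RNA jasmonate is known to induce, 0 rose in either line by edgeR, also at an unadjusted p under 0.05, or by DESeq2 or limma-voom. JAZ1 fell in AtCXE15-OE (log2 fold change -0.30 ± 0.06, edgeR adjusted p = 0.0252). JAZ4 and JAZ9 fell in atd14-1 (-0.57 ± 0.15 and -0.20 ± 0.06, edgeR adjusted p = 0.0235 and 0.0476), and limma-voom did not call JAZ9 (adjusted p = 0.0573). These falls stand beside 1.51% of all tested genes called lower in AtCXE15-OE and 6.87% in atd14-1.

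Of 10 early wound and touch genes, 10 fell in AtCXE15-OE and 10 in atd14-1, with median log2 fold changes of -0.86 and -0.79. Among all tested genes, 1.51% were called lower in AtCXE15-OE and 6.87% in atd14-1. The zinc finger gene SZF1 fell from 138 ± 7.36 CPM to 52.9 ± 3.00 and 56.8 ± 2.90 CPM (edgeR adjusted p = 1.62e-08 and 2.2e-08). In AtCXE15-OE and atd14-1 the log2 fold changes were -0.91 and -0.63 for the zinc finger gene ZAT10, -0.86 and -0.72 for SZF2, -0.85 and -0.80 for TCH4, which encodes a cell wall enzyme induced by touch, and -1.51 and -1.39 for the transcription factor gene WRKY40. This list was chosen from earlier results of these libraries, so its count is no independent evidence of its direction. The summed level of the list was 633 to 688 CPM in Col-0, 339 to 368 in AtCXE15-OE and 352 to 390 in atd14-1, and its part in the levels of LOX2 and AOC2 was not tested.

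TCP3, of the 5 CIN-type TCP genes, rose in atd14-1 (log2 fold change 0.29 ± 0.07, edgeR adjusted p = 0.0149; 73.8 ± 7.86 CPM in the wild type and 90.2 ± 5.54 CPM in the mutant). In AtCXE15-OE 0 of these 5 were called by edgeR, DESeq2 or limma-voom, and 0 had an unadjusted edgeR p under 0.05. TCP4 was at 0.952 CPM in Col-0 replicate 2 and 1.21 CPM in AtCXE15-OE replicate 1 but at 56.2 to 74.4 CPM in the other 7 libraries, so that no difference between groups could be read for it.

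**Figure D4:**
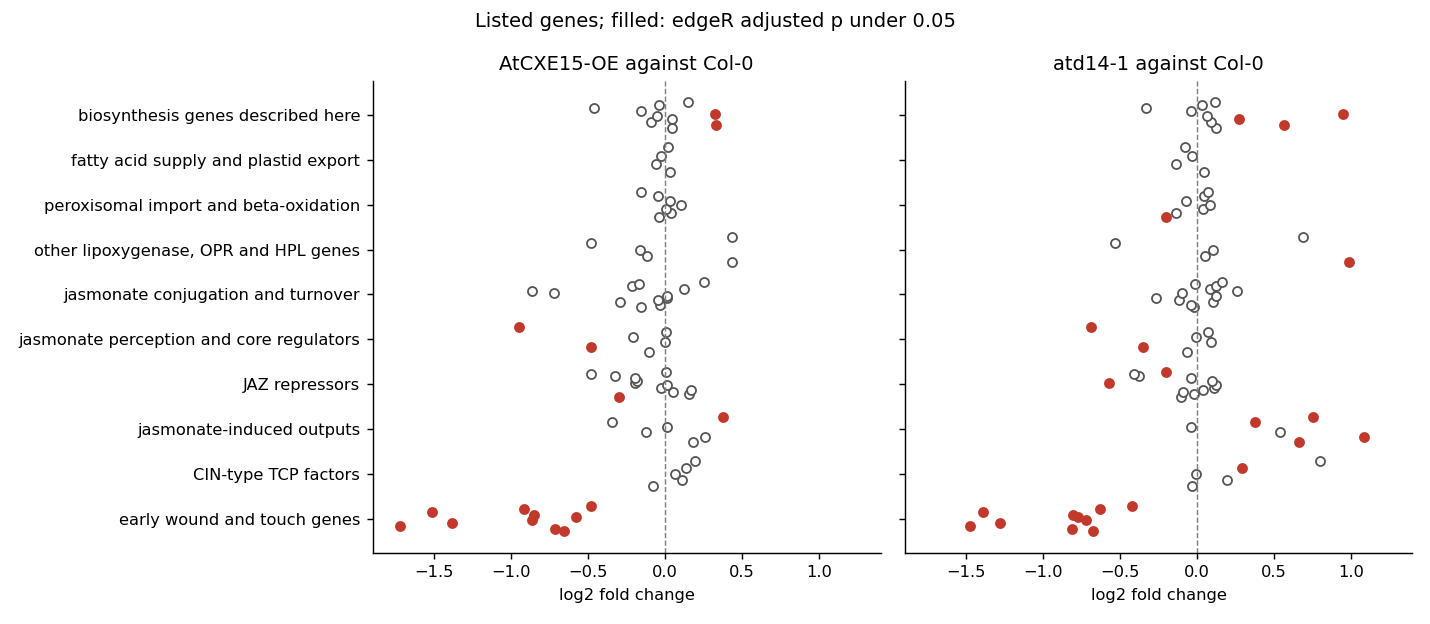
Log2 fold changes of the genes of each list (points, filled where the edgeR adjusted p was under 0.05) in AtCXE15-OE (left) and atd14-1 (right) against Col-0, with 0 as a dashed line. In atd14-1, 4 of the 6 jasmonate-induced outputs are filled to the right of 0, and the 10 early wound and touch genes lie below 0 in both lines.

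In atd14-1, where LOX2 was highest, 6 of 8 green tissue markers fell and 0 rose, beside 6.87% of all tested genes called lower. LHCB2.1, a subunit of the light-harvesting complex, was at 1222 ± 65.7 CPM in the wild type and 686 ± 69.0 CPM in the mutant (log2 fold change -0.83 ± 0.08, edgeR adjusted p = 8.16e-06). Next by adjusted p were LHCA1, also of a light-harvesting complex (-0.76), the Rubisco activase gene RCA (-0.41), PSBO1 of photosystem II (-0.35) and PRK of the Calvin cycle (-0.19). The row of RCA overlaps 343 other loci and that of RBCS1A 1181. Counts in these rows may include those of other genes, also in the sums below. In AtCXE15-OE 0 of 8 were called by edgeR or limma-voom, 1 was lower by DESeq2, and 2 were lower at an unadjusted edgeR p under 0.05. The summed level of the 8 markers was 21970 to 22810 CPM in Col-0, 16150 to 22400 in AtCXE15-OE and 16320 to 20180 in atd14-1. The rows of RBCS1A and PSAD1 set the low end in AtCXE15-OE: in its replicate 2, RBCS1A was at 1600 CPM and PSAD1 at 2.20 CPM. Without both, a sum chosen after the values were seen, the other 6 markers reached 15580 to 16550 CPM in Col-0, 14540 to 15610 in AtCXE15-OE and 11160 to 12310 in atd14-1. Of 9 root markers, TIP2;3 alone was called in atd14-1 (log2 fold change 0.52, edgeR adjusted p = 0.00835), and 0 were called in AtCXE15-OE by edgeR or limma-voom, with 1 lower by DESeq2 and 2 lower at an unadjusted edgeR p under 0.05. Their summed level was 185 to 216 CPM in Col-0, 176 to 183 in AtCXE15-OE and 202 to 222 in atd14-1. The part of tissue makeup in the levels of LOX2, AOC2 and AOC4 was not tested.

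Over the 9 libraries, Pearson's r of log2 CPM with LOX2 was 0.94 for AOC2 and 0.88 for AOC4, and from -0.44 (LOX4) to 0.47 (AOS) for the other 7 genes. These values describe libraries that fall into 3 groups, and they reflect differences between groups as well as between libraries. Among 19521 tested genes outside the 10 with a mean of at least 1 CPM, the 6 with the highest r were AT3G53980, the nitrate transporter gene NRT1.9, TBL36, the sulfolipid synthesis gene SQD1, the brassinosteroid acyltransferase gene BAT1 and AT5G64343, in this order, with r from 0.9931 to 0.9856. AT3G53980 was at 64.0, 62.3 and 63.5 CPM in the Col-0 libraries, 108, 89.0 and 92.3 in those of AtCXE15-OE, and 218, 215 and 197 in those of atd14-1. As for LOX2, its highest AtCXE15-OE library was replicate 1. All 6 were called higher in atd14-1, with log2 fold changes of 0.41 to 1.73, but their choice by likeness to LOX2 makes this a description. In AtCXE15-OE, AT3G53980 and TBL36 were called higher (edgeR adjusted p = 0.000277 and 0.038). NRT1.9, SQD1, BAT1 and AT5G64343 were not called there (edgeR adjusted p = 0.165, 0.082, 0.394 and 0.357).

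**Figure D5:**
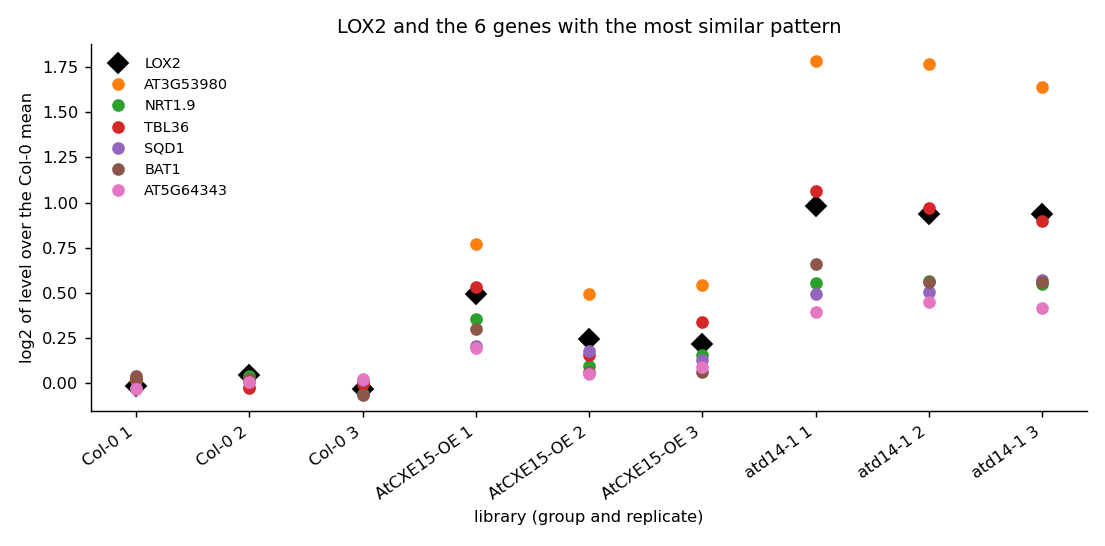
Log2 of the CPM of LOX2 (diamonds) and of the 6 genes with the most similar pattern (circles) over their own Col-0 mean, in each of the 9 libraries. All 7 are lowest in Col-0 and highest in atd14-1, and they were chosen for this likeness.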

How the data were processed

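Polyadenylated RNA of 9 seedling libraries was deposited by the authors as raw counts per gene, not normalized. Per the submitters' processing notes, the tools included DESeq 1.39.0, SAMtools 0.1.18, HISAT2 and Picard, with TAIR10 as the build. No source used here gives the counter or its treatment of strand and of multiply mapping reads. The gene length used per kilobase is the value in the deposited count table. Of 27814 rows, 448 carried no locus ID. They held 0.222% of the counts and were kept in library sizes and tests. Genes were tested in R 4.3.3 with edgeR 4.0.16 (quasi-likelihood test, TMM, filterByExpr, robust dispersion), with 9 libraries in 1 fit of group means and Benjamini-Hochberg adjustment over 21425 genes. The SE of a log2 fold change is approximate, from its F statistic. Levels are TMM-scaled CPM. In simulated data with known changes, the share of false calls was above the threshold, and most of the smallest changes were missed. Alternatives were DESeq2 1.42.0, limma-voom 3.58.1, other scalings and filters, a replicate block, left-out libraries, summed overlapping loci and a marker sum without RBCS1A and PSAD1. Every pair of libraries in a group differed by more than counting noise (lowest chi-square per degree of freedom 24.3). Each library was counted as 1 sample, but this statistic cannot tell separate cultures from separate preparations of the same material. Sequences are from RefSeq TAIR10.1, aligned with MAFFT 7.526. A promoter is the 250 bases before the annotated start, and motifs were searched on both strands. The 10 genes and the 11 other lists (87 genes) were chosen with earlier results of these data known. Named genes were the 10, up to 5 called genes of each other list per line, the 6 genes most like LOX2, CXE15 and D14. The annotation gives 5 listed genes another or no symbol, and these were counted but are not named. TCP4, LOX1, LOX5, OPR1, OPR2, JAR1, MYC4, DAD1 and DGL were named beyond this rule, after their values were seen.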

Additional observations from a re-analysis of the deposited data

Results flagged for a closer look

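The difference of each line from Col-0 was itself tested between the lines, as atd14-1 minus AtCXE15-OE, by edgeR. LOX2 differed by 0.63 on the log2 scale (adjusted p = 0.000121), with all 3 atd14-1 libraries above all 3 AtCXE15-OE libraries. AOC2 differed by 0.23 (adjusted p = 0.00731) and AOC4 by 0.23 (adjusted p = 0.0362), each also with all 3 atd14-1 libraries above. For AOC4, AtCXE15-OE and Col-0 overlapped, and the call between the lines was lost under 7 of 16 alternatives.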

How the results depend on the processing

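AOC2 was called in all 3 comparisons, and LOX2 in atd14-1 against Col-0 and between the lines, under each of 16 alternatives (LOX2 from 0.94 to 1.03 and from 0.57 to 0.72). With only the 6 libraries compared, 1 of the 10 genes, AOC2, was called in AtCXE15-OE, and with 1 library left out at a time, 1 to 2. Over all genes, DESeq2 called 840 in AtCXE15-OE against 487. With 1 library left out, calls ranged from 287 to 586 in AtCXE15-OE and from 769 to 2216 between the lines. These counts moved by over 1.5 times without Col-0 replicate 1 (306) or 2 (313) or AtCXE15-OE replicate 3 (287) in the first, and without AtCXE15-OE replicate 2 (837) or 3 (776) or atd14-1 replicate 1 (820), 2 (769) or 3 (913) in the second. With all overlapping loci summed, 203, 944 and 588 groups of loci were called of 7293 tested. LOX3, LOX4, LOX6, AOS, AOC4 and OPR3 then stand for large groups of genes, which include the loci over 100 kb. In this setting log2 fold changes in AtCXE15-OE were 0.0025 for LOX3, 0.0083 for LOX4 and LOX6, and -0.0016 for OPR3. In atd14-1 they were -0.0805 for LOX6, -0.1071 for AOS (adjusted p = 0.0471, the 1 lower call), -0.0459 for AOC4 and -0.0247 for OPR3. Between the lines they were -0.0484 for LOX3 and AOC4, -0.0887 for LOX4 and LOX6, and -0.0783 for AOS. Scaled by library size alone, LOX3 in atd14-1 was 0.0409 and OPR3 between the lines 0.0237. With 1 library left out, signs changed within these ranges for genes not called: in AtCXE15-OE LOX6 from -0.0729 to 0.0153, AOC1 from -4e-04 to 0.1064, AOC4 from -0.0171 to 0.0738 and OPR3 from -0.1113 to 0.4078; in atd14-1 LOX6 from -0.0276 to 0.0778 and OPR3 from -0.2037 to 0.2923; between the lines OPR3 from -0.3506 to 0.13. AOC3 passed the test between the lines without AtCXE15-OE replicate 1 (0.31, adjusted p = 0.0472). The cause was not tested. Replicate numbers did not pair the libraries (r from -0.0494 to 0.0432 for the same number, 2 of 9 closest to their own). A fit with the replicate block called 461, 2576 and 1561 genes and changed no call of the 10.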
